A study of Homo sapiens with 15 samples.

Results

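The genes described here are 9 components and regulators of the complement system, C3, CFB, CFI, C1R, C1S, CD46, CD55, CD59 and SERPING1, out of 58219 genes in a table of RNA sequencing counts. They were chosen by name, and each was found in the table once through its Ensembl identifier. The cells were BEAS-2B, an immortalized line of human bronchial epithelial cells, grown in serum-free medium on collagen and exposed to fine particulate matter (PM2.5) collected in Beijing. Each of 5 conditions held 3 libraries, and a library's replicate number is that of the independent experiment it came from. In the 24-h protocol, cells received vehicle (Control_24h), 1 µg/cm2 of PM2.5 (PM_24h_1dose) or 30 µg/cm2 (PM_24h_30dose). In the repeated protocol, cells received vehicle (Control_7d) or 1 µg/cm2 every day (PM_7d_1dose), with a wash between exposures and collection on day 7. Experiments 1 to 3 of the repeated protocol are other experiments than those of the 24-h protocol. The whole experiment used a single cell line without immune or liver cells, so it shows only what these epithelial cells transcribe.

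Complement is a cascade of proteases and binding proteins that tags surfaces for uptake, recruits leukocytes and can perforate membranes. Antibody-bound C1q activates the proteases C1r and C1s, the alternative pathway uses factor B, and all routes meet at C3, whose cleavage feeds the terminal pathway. Most plasma complement comes from the liver, but airway epithelium also makes complement proteins, and nearly every nucleated cell carries membrane regulators that stop the cascade on its own surface.

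Gene counts summed to 21460981 to 34724765 per library (median 29243177). Levels are given as CPM, the count of a gene per 1e6 counted reads, after TMM scaling (trimmed mean of M-values) between libraries in edgeR. Taking 3 counts as the floor, the limit in a library was 0.0864 to 0.140 CPM, for counting error only. In the 24-h protocol, the 3 libraries of experiment 2 stood apart: between replicates, chi-square per degree of freedom was 70.7 to 169 for pairs that included experiment 2 and 4.26 to 17.2 for experiment 1 against experiment 3. Results that rest on these libraries are therefore given with and without them. All 7 epithelial markers examined passed the filter on low counts. Of 8 leukocyte markers, CD14, LAPTM5 and CD74 passed it, while TYROBP was listed at 0 in every library and PTPRC had at most 2 counts. Of 5 liver markers, APOB and SERPINA1 passed, and ALB had at most 11 counts. All 6 fibroblast markers passed, with a summed level of 50.7 to 102 CPM over the 15 libraries.

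C1R and C1S lie side by side on chromosome 12 of GRCh38, at positions 7080209 to 7092607 on the minus strand and 6988259 to 7071032 on the plus strand, with 9176 bases between them. CD55 (207321508 to 207386804) and CD46 (207752057 to 207795513), both on the plus strand of chromosome 1, belong to a cluster of complement regulators and are 365252 bases apart. C3 lies on chromosome 19 (6677704 to 6730562, minus strand), and CFB on chromosome 6 (31945650 to 31952084, plus strand). SERPING1 (57597387 to 57614853, plus strand) and CD59 (33698261 to 33736445, minus strand) are on chromosome 11, and CFI is on chromosome 4 (109740694 to 109802179, minus strand). Counts cover all exons of a gene together, so isoforms were not separated.

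Promoter sequences from RefSeq (build GRCh38.p14) covered 6 of the 9 genes in 11 entries of 300 bases, from 250 bases before a transcription start to 50 after it. Those of C1R, the gene with the largest ratio of its highest to its lowest level among the 7 tested, and of CD55 and CD59, which are described below as moving in other ways, are shown 5′ to 3′ on the strand of the gene. Capitals mark matches to the motifs searched. No entry was used for C3, C1S and SERPING1.
C1R, chr12:7092396-7092695, minus strand: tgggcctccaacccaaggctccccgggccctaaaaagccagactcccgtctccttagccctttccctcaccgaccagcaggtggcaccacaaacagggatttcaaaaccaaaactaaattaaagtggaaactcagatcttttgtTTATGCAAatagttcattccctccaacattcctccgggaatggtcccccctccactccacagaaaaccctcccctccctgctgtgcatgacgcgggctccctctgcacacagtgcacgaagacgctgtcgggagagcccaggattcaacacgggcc
C1R, chr12:7091844-7092143, minus strand: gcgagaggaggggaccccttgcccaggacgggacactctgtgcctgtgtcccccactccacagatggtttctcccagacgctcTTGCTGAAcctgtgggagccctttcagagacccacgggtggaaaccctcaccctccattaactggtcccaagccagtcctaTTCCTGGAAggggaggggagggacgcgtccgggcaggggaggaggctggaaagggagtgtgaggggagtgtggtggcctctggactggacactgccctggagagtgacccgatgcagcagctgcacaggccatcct
CD55, chr1:207321428-207321727, plus strand: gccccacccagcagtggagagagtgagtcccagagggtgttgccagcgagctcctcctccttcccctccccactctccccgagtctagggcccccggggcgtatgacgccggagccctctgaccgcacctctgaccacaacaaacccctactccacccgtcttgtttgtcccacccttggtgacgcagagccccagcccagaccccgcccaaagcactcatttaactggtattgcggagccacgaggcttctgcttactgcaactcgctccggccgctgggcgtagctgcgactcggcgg
CD59, chr11:33736374-33736673, minus strand: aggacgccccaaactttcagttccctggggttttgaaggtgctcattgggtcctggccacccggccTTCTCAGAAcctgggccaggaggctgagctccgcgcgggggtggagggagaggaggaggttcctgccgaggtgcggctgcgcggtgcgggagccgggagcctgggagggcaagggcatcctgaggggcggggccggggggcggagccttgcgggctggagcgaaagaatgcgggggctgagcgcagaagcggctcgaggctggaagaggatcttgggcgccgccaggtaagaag

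Motifs were searched on both strands of these windows and of all 35116 promoters of the same length. A gene was counted if any of its windows matched, and the 6 genes had 11 windows, some of them overlapping. Each percentage counts single windows, so the counts of genes and the percentages are not on the same footing. The interferon gamma activated site, TTCNNNGAA, which reads the same on both strands, was found in 3 of the 6 genes (C1R, CD59 and CFB) and in 7.66% of all promoters. In the second C1R window it starts at position -86 from the transcription start, and in the CD59 window at -184. A C/EBP site, TTGCNNAA, was found in C1R (both windows) and in another start of CD59, against 10.5% of all promoters. The AP-1 site, TGANTCA, was found in a further CD59 start (7.71% of all promoters), and the AhR core, GCGTG, in CD46 (36.5%). CFB alone held the kappaB consensus (11.3%), the interferon-stimulated response element core GAAANNGAAA (3.57%) and a TATAAA box (11.5%), which overlapped neither each other nor its interferon gamma activated site. The antioxidant response element core, TGACNNNGC, was in none of the 6 genes and in 13.3% of all promoters. The CD55 and CFI windows held none of the 8 motifs.

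Per kilobase of exon, the most abundant of the genes in Control_24h was CD59, at 69.0 ± 9.17 CPM per kilobase (SD, n = 3). C3 followed at 53.9 ± 13.2, CD46 at 28.7 ± 4.25, C1R at 15.1 ± 13.2, CD55 at 7.05 ± 0.164, C1S at 2.85 ± 2.16 and SERPING1 at 0.563 ± 0.327 CPM per kilobase. The libraries of CD59 and C3 overlapped in this order, as did those of CD46 and C1R and those of C1R and CD55. In Control_7d the order was C3 (49.6 ± 1.59 CPM per kilobase), CD46 (34.2 ± 0.306), CD59 (29.7 ± 1.22), C1R (19.2 ± 0.695), CD55 (10.4 ± 0.301), C1S (3.50 ± 0.264) and SERPING1 (0.344 ± 0.0660), and no neighbours in it overlapped. By this measure the membrane regulator CD59 was near the level of C3 in Control_24h and below it in Control_7d, and CD46 was below C3 in both. C1R was read at several times the level of its partner C1S. The length used counts every annotated exon, 8328 bases for C3, 8708 for CD46 and 4942 for CD59. Their canonical transcripts have 5231, 3320 and 7563 bases, so the order of C3, CD46 and CD59 depends on the length chosen.

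**Figure D1:**
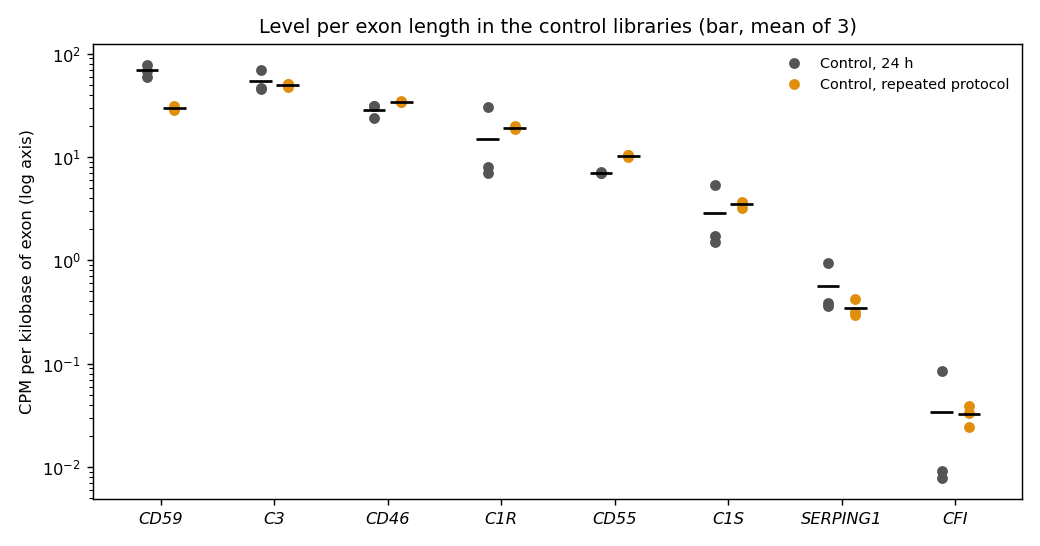
Level in CPM per kilobase of exon (log axis) of 8 genes in the 3 libraries of each control condition, with the mean as a bar. CD59 is at 69.0 in Control_24h and at 29.7 in Control_7d, and CFI lies below all the other genes; CFB, at 0, cannot be drawn.

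CFB, the protease of the alternative pathway, was listed at 0 in all 15 libraries. Of the 2476 bases of its canonical transcript, 2249 (90.8%) are also exon bases of a read-through gene, ENSG00000244255, on the same strand, which was listed at 0 everywhere too. How featureCounts treated reads that fall on more than 1 gene is not given in the sources used here, so the 0 is uncertain over the shared bases. Over all annotated exons of CFB, 2272 of 4997 bases (45.5%) are shared, and the unshared bases gave no counts either. Whether CFB is transcribed in these cells was not tested further. Part of C1R is also shared, 628 of 2488 canonical bases (25.2%), with its neighbour C1RL on the same strand, and C1R values are uncertain to that extent. The canonical transcripts of the other 7 genes share no base with another gene's exons.

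CFI, the protease factor I that inactivates C3b and C4b with the help of cofactors such as CD46, was near the floor. It had 1, 7 and 1 counts in Control_24h, 10, 7 and 10 in PM_24h_1dose, and 0, 7 and 4 in PM_24h_30dose. Daily exposed cultures and their controls had few as well, with 4, 4 and 3 counts in Control_7d and 3, 2 and 3 in PM_7d_1dose. CFI did not pass the filter on low counts over the 15 libraries, and it passed in the fits without 24-h experiment 2, described below. The other 7 genes passed and were tested with edgeR's quasi-likelihood test, with 1 mean per condition fitted to all 15 libraries. A gene was called at a Benjamini-Hochberg adjusted p under 0.05 over all 17599 tested genes and a log2 change of 0.6 or more in either direction.

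C1R and C1S encode the paired proteases that start the classical pathway. C1R was at 40.1, 172 and 44.9 CPM in experiments 1, 2 and 3 of Control_24h, at 67.2, 207 and 70.9 CPM in PM_24h_1dose, and at 14.6, 88.2 and 16.1 CPM in PM_24h_30dose. In repeated cultures it was at 113, 105 and 108 CPM in Control_7d and at 99.7, 95.2 and 96.5 CPM in PM_7d_1dose. In the 24-h protocol every experiment had its highest C1R level at 1 µg/cm2 and its lowest at 30 µg/cm2, but the conditions overlapped because experiment 2 was high throughout. After repeated exposure the treated libraries were all below the controls.

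C1S was at 9.63, 34.5 and 11.1 CPM in Control_24h, at 14.3, 35.0 and 18.4 CPM in PM_24h_1dose, and at 8.32, 25.0 and 7.47 CPM in PM_24h_30dose. With daily exposure C1S was at 23.8, 23.4 and 20.6 CPM in Control_7d and at 19.5, 19.9 and 20.1 CPM in PM_7d_1dose. Its order within each 24-h experiment was that of C1R.

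C3, which codes for the central component of the cascade, was at 392, 575 and 379 CPM in Control_24h, at 434, 615 and 403 CPM in PM_24h_1dose, and at 191, 431 and 194 CPM in PM_24h_30dose. It was at 420, 398 and 421 CPM in Control_7d and at 353, 351 and 332 CPM in PM_7d_1dose. Experiment 2 was again the highest in each 24-h condition, and in every experiment the library with 30 µg/cm2 was the lowest. The groups of the repeated protocol did not overlap, with all treated libraries lower.

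SERPING1, which codes for the C1 inhibitor that inactivates C1r and C1s, was at 1.38, 3.39 and 1.31 CPM in Control_24h, at 2.11, 4.41 and 1.90 CPM in PM_24h_1dose, and at 0.756, 1.63 and 0.910 CPM in PM_24h_30dose. Repeated cultures had 1.14, 1.51 and 1.07 CPM in Control_7d and at 1.20, 1.10 and 1.22 CPM in PM_7d_1dose. All 3 libraries with 30 µg/cm2 lay below all 3 with 1 µg/cm2, and the repeated groups overlapped. These levels rest on 19 to 89 reads per library.

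CD46, CD55 and CD59 are the membrane regulators: CD46 is a cofactor for the cleavage of C3b, CD55 (decay accelerating factor) takes apart the convertases, and CD59 blocks the membrane attack complex. CD46 was at 272, 207 and 270 CPM in Control_24h, at 277, 167 and 294 CPM in PM_24h_1dose, and at 221, 179 and 232 CPM in PM_24h_30dose. It was at 295, 297 and 301 CPM in Control_7d and at 259, 262 and 255 CPM in PM_7d_1dose. Experiment 2 was the lowest for CD46 in each 24-h condition, opposite to C1R, C1S, C3 and SERPING1.

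CD55 was at 38.8, 38.7 and 40.3 CPM in Control_24h, at 38.4, 38.0 and 42.3 CPM in PM_24h_1dose, and at 58.9, 44.5 and 62.3 CPM in PM_24h_30dose. Repeated cultures had 58.7, 55.7 and 58.5 CPM in Control_7d and at 69.1, 64.2 and 60 CPM in PM_7d_1dose. At 30 µg/cm2 all libraries lay above both other 24-h groups, and the repeated treated libraries lay above their controls.

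CD59 was at 339, 297 and 387 CPM in Control_24h, at 255, 302 and 293 CPM in PM_24h_1dose, and at 261, 313 and 272 CPM in PM_24h_30dose. It was at 153, 141 and 146 CPM in Control_7d and at 153, 146 and 159 CPM in PM_7d_1dose. Every library of the repeated protocol was below every library of the 24-h protocol.

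**Figure D2:**
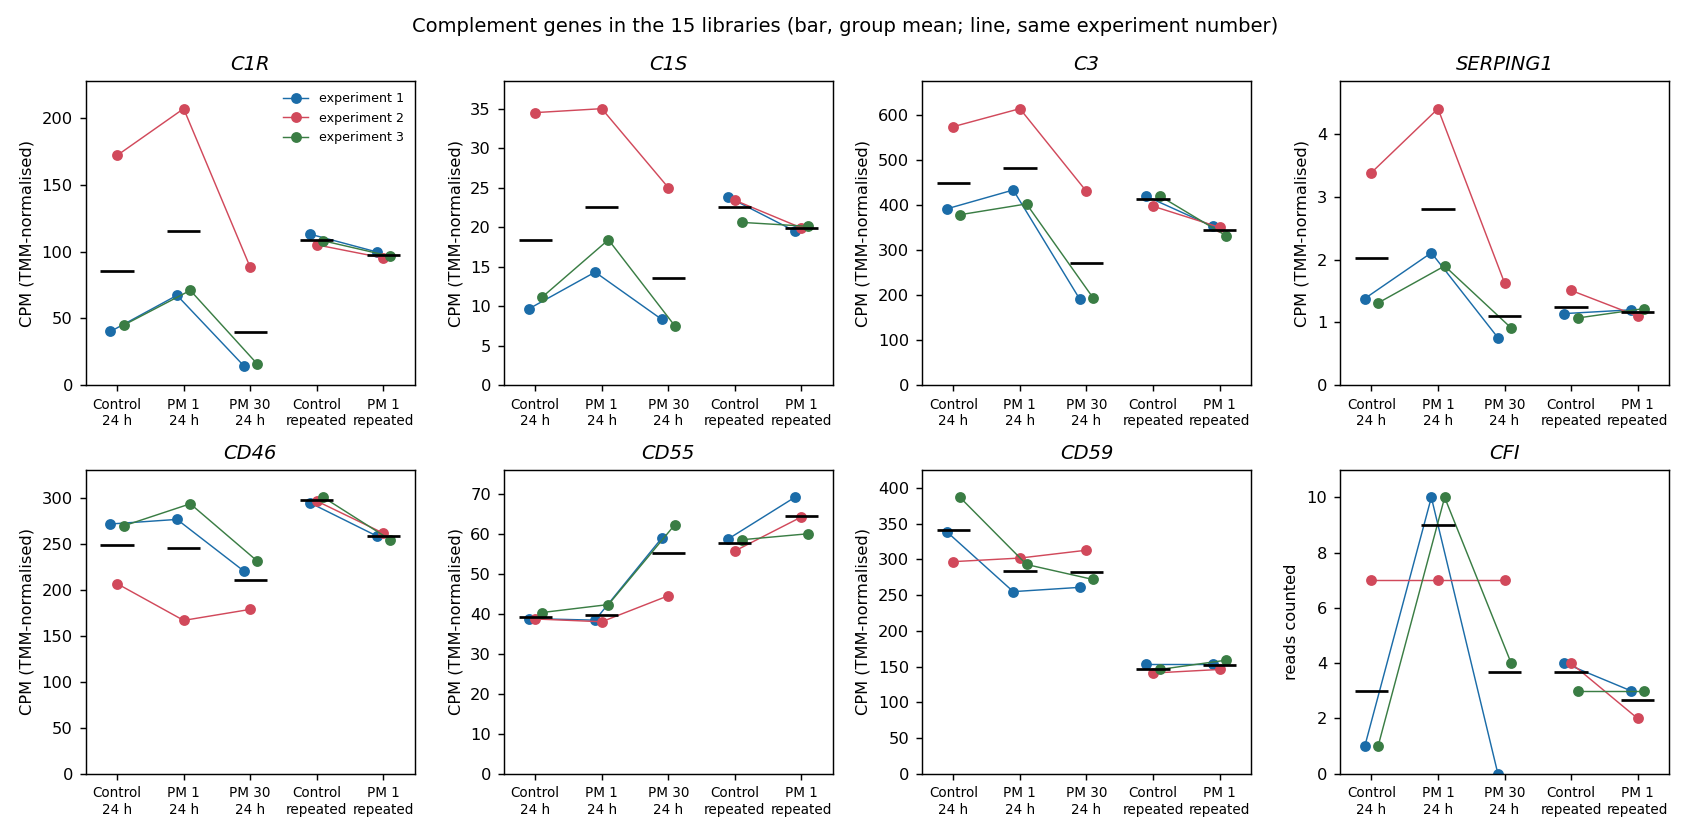
Level of 7 genes in TMM-normalised CPM, and reads counted for CFI, in each library of the 5 conditions, with points of the same experiment number joined within a protocol and group means as bars. Experiment 2 of the 24-h protocol is at 172 CPM for C1R in Control_24h against 40.1 and 44.9 CPM in the others, and CD59 lies at 141 to 159 CPM in all repeated libraries.

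The first comparison asked how cells given 30 µg/cm2 differed from vehicle after 24 h. None of the 7 tested genes was called, against 8.07% of all genes tested. By unadjusted p, 3 of the 7 (C3, CD55 and CD59) were under 0.05, against 23.6% of all genes, and DESeq2 called none of the 7 and 10% of the genes it tested. CD55 passed the adjusted p but not the fold threshold, at 0.49 on the log2 scale (SE 0.123, adjusted p = 0.0210, edgeR quasi-likelihood test), and was higher in 9 of 9 pairs of libraries, as 22.8% of all genes were higher or lower. For C3 the log2 difference was -0.72 (SE 0.278, 95% interval -1.32 to -0.13, adjusted p = 0.126), for C1R -1.11 (SE 0.684, interval -2.58 to 0.36, adjusted p = 0.366) and for SERPING1 -0.86 (SE 0.432, interval -1.79 to 0.07, adjusted p = 0.252). The 95% interval was -1.52 to 0.67 for C1S, -0.64 to 0.15 for CD46 and -0.53 to -0.01 for CD59.

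Treated and control cells of 1 experiment number were handled together, and within each experiment the differences were more alike. C1R at 30 µg/cm2 was 0.365, 0.512 and 0.358 of its control in experiments 1, 2 and 3. C3 was 0.486, 0.749 and 0.512 of its control, and SERPING1 0.546, 0.481 and 0.694. C1S, at 0.863, 0.725 and 0.674, and CD46, at 0.811, 0.864 and 0.859, were lower in 3 of 3 experiments by less. CD55 was 1.52, 1.15 and 1.55 times its control, and CD59 was 0.770, 1.05 and 0.703 of it, so that experiment 2 had the smallest step of the 3 for C1R, C3 and CD55 and went the other way for CD59.

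When the number of the experiment entered the edgeR model as a replicate block, 3 of the 7 genes were called lower at 30 µg/cm2 and none was called higher. Of all genes, 15.2% were called (7.87% lower). C1R fell by 1.26 on the log2 scale (SE 0.148, adjusted p = 5.62e-05), lower in 3 of 3 experiments. C3 fell by 0.80 (SE 0.123, adjusted p = 0.000425) and SERPING1 fell by 0.85 (SE 0.222, adjusted p = 0.0119). CD55 stayed below the fold threshold at 0.48 (SE 0.0973, adjusted p = 0.00263), and C1S at -0.41 (SE 0.145) had an adjusted p of 0.0520 in edgeR. Intervals with the block were -0.45 to -0.03 for CD46 and -0.50 to -0.05 for CD59.

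Without the 3 libraries of 24-h experiment 2, and without the block, C1R stood at -1.49 on the log2 scale (SE 0.0923, adjusted p = 4.15e-09 by edgeR), C3 at -1.02 (SE 0.0764, adjusted p = 3.71e-08) and CD55 at 0.60 (SE 0.0904, adjusted p = 6.79e-05). These 3 were called, against 19.1% of all genes, and SERPING1 was not (-0.72, SE 0.290, adjusted p = 0.0606). Leaving out only the library of experiment 2 with 30 µg/cm2 gave the same 3 calls, at -2.49 for C1R, -1.23 for C3 and 0.62 for CD55. That fit is unbalanced, as it keeps the control of experiment 2, at 172 CPM for C1R against 40.1 and 44.9 CPM. Its value for C1R lies outside the log2 ratios within the experiments, -1.45, -0.96 and -1.48.

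Epithelial markers were lower with 30 µg/cm2 too: their summed level was 843 to 1310 CPM, against 2000 to 2520 CPM in Control_24h, and 4 of 7 were called lower (KRT5, KRT8, KRT19 and CDH1). Leukocyte markers summed to 5.92 to 22.2 CPM against 15.2 to 17.3 CPM, and fibroblast markers to 50.7 to 97.2 CPM against 67.6 to 78.5 CPM, with none called in either list. Liver markers summed to 3.78 to 14.2 CPM against 5.63 to 7.68 CPM. Of the 2 that were tested, APOB was called lower (-2.09). SERPINA1 was higher without being called (1.21, SE 0.548, adjusted p = 0.199 by edgeR). With the block, which called 15.2% of all genes, TP63 made 5 of 7 epithelial markers called lower. The leukocyte marker CD74 was called lower too (-0.77, adjusted p = 0.0444 by edgeR). Without the block, CD14 was at -0.60 and LAPTM5 at 0.10, neither called. The part of these markers in the complement results was not tested. In these bulk libraries a loss of cells that carry a transcript and less of it per cell cannot be told apart.

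The second comparison asked what 1 µg/cm2 did in 24 h. None of the 7 genes was called, against 0.0625% of all genes, 1 of the 7 (CD59) had an unadjusted p under 0.05, against 3.03% of all genes, and DESeq2 called none (0.169% of its genes). C1R was 1.68, 1.20 and 1.58 times its control in the 3 experiments, with a log2 fold change of 0.42 (SE 0.675, interval -1.03 to 1.87). C1S was 1.49, 1.01 and 1.66 times its control (0.30, SE 0.506, interval -0.79 to 1.38) and SERPING1 1.52, 1.30 and 1.45 times (0.47, SE 0.415, interval -0.42 to 1.36). C3 (interval -0.48 to 0.70), CD46 (-0.42 to 0.37) and CD55 (-0.26 to 0.27) lay around 0, and CD59 had a log2 fold change of -0.27 (SE 0.121).

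The replicate block also called none of them, against 0.420% of all genes. C1R then stood at 0.57 (SE 0.143, interval 0.26 to 0.88) with an adjusted p of 0.165 by edgeR, and C1S at 0.44 (SE 0.142, adjusted p = 0.339). Without the libraries of experiment 2, C1R was 0.71 higher (SE 0.0848, adjusted p = 9.44e-05) and C1S 0.67 higher (SE 0.132, adjusted p = 0.00587) by edgeR, and both were called, against 2.11% of all genes. In that pair of experiments CFI went from 1 count in each control library to 10 in each treated one, and was not called. A fold is not given for CFI since its control counts are under the floor.

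Between the concentrations, 30 against 1 µg/cm2 at 24 h, edgeR called none of the 7 genes with 1 mean per condition, against 7.84% of all genes. By unadjusted p, 4 of the 7 (C1R, C3, SERPING1 and CD55) were under 0.05, against 24.5% of all genes, and DESeq2 called C3 and SERPING1 lower, against 10.1% of all genes it tested. The log2 differences were -1.53 for C1R (SE 0.690), -0.83 for C3 (SE 0.278) and -1.33 for SERPING1 (SE 0.430), with adjusted p of 0.187, 0.0760 and 0.0665. CD55 was 0.48 higher (SE 0.123, adjusted p = 0.0243 by edgeR), below the fold threshold. For CD55 and SERPING1 the groups did not overlap, as for 21.6% of all genes.

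With the block, 4 of the 7 genes were called lower at 30 than at 1 µg/cm2, against 15.6% of all genes called (8.58% lower). C1R was lower by a log2 difference of -1.83 (SE 0.15, adjusted p = 4.32e-06, edgeR), its level at 30 µg/cm2 being 0.218, 0.427 and 0.227 of that at 1 µg/cm2. SERPING1 differed by -1.35 (SE 0.216, adjusted p = 0.000550), C3 by -0.91 (SE 0.123, adjusted p = 0.000173) and C1S by -0.85 (SE 0.145, adjusted p = 0.000870). Without the libraries of experiment 2 and without the block the same 4 genes were called, at -2.20, -1.30, -1.14 and -1.07, against 17.3% of all genes. Leaving out only the library of experiment 2 with 30 µg/cm2 called these 4 and CD55 (0.60). That fit is unbalanced, since it keeps the library of experiment 2 with 1 µg/cm2.

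**Figure D3:**
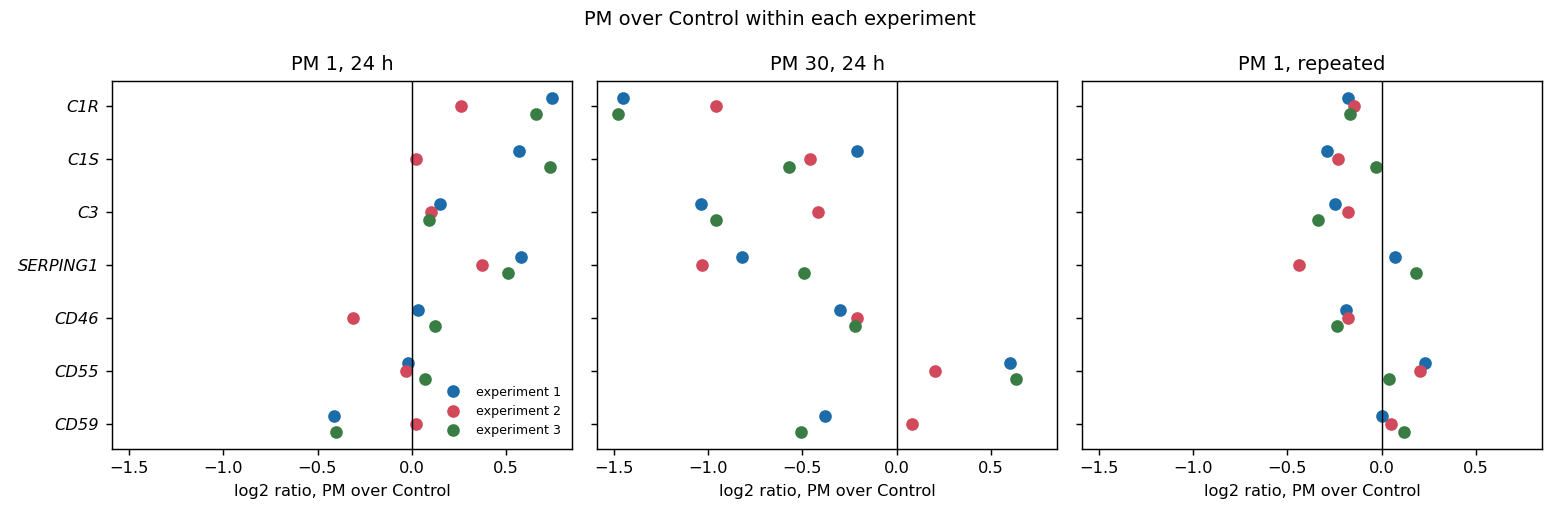
Log2 ratio of PM2.5 over its control in each experiment for 7 genes, in 3 panels for 1 µg/cm2 at 24 h, 30 µg/cm2 at 24 h and repeated 1 µg/cm2. C1R lies at 0.26 to 0.74 in the first panel, at -1.48 to -0.96 in the second and at -0.18 to -0.15 in the third.

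The ratio of the C1 proteases was also compared, with the limit that C1R shares 25.2% of its canonical bases with C1RL. Per kilobase, C1R over C1S was 4.74, 5.68 and 4.62 in Control_24h and 2.0, 4.01 and 2.45 in PM_24h_30dose, so that all 3 treated libraries lay below all 3 controls. The means were 5.01 ± 0.581 and 2.82 ± 1.05 (SD, n = 3), with p = 0.1 in an exact two-sided permutation test, the smallest that 3 against 3 allows. The test took the libraries as unpaired, although they share experiments, and with so few libraries it cannot decide whether the ratio differed. In PM_24h_1dose the ratio was 5.48 ± 1.18 (p = 0.7 against Control_24h, exact permutation test, n = 3), and in the repeated protocol it was 5.51 ± 0.427 in Control_7d and 5.58 ± 0.216 in PM_7d_1dose (p = 0.8, exact permutation test, n = 3).

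The third comparison was repeated 1 µg/cm2 against its own control. None of the 7 genes was called by edgeR or by DESeq2 (1.55% of its genes), none had an unadjusted p under 0.05 in edgeR, and 0.227% of all genes were called. With the block, 4.39% of all genes were called and again none of the 7. C3 was 0.840, 0.882 and 0.788 of its control (log2 fold change -0.26, SE 0.276, interval -0.85 to 0.34, and -0.52 to 0.01 with the block). CD46 was 0.876, 0.883 and 0.849 of its control (-0.20, interval -0.60 to 0.19), and C1R 0.881, 0.904 and 0.891 (-0.17, interval -1.61 to 1.28). All 9 pairs of libraries were lower for C1R, C1S, C3 and CD46 and higher for CD55 (0.16, interval -0.10 to 0.42), against 43.0% of all genes with all pairs 1 way. SERPING1 (-1.01 to 0.84) and CD59 (-0.20 to 0.32) had intervals around 0 and overlapping groups. Epithelial markers summed to 1410 to 1560 CPM, against 2270 to 2780 CPM in Control_7d, and KRT5 and TP63 were called lower. Leukocyte markers summed to 9.05 to 15 CPM against 18.1 to 19.2 CPM, with none called. With the block KRT19 and CDH1 were called lower as well, making 4 of 7 epithelial markers, as was the leukocyte marker LAPTM5 (-1.20, adjusted p = 0.0128 by edgeR). Without the block, CD14 was at -0.42 and CD74 at 0.31, neither called. The part of these markers was not tested.

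Whether the response to repeated exposure differed from that to 1 exposure was tested as a difference of log2 fold changes. Against 1 µg/cm2 at 24 h, none of the 7 genes and 0% of all genes were called by edgeR, with 0 of 7 at an unadjusted p under 0.05 and 0 called by DESeq2 (0.343% of its genes). The difference was -0.59 for C1R (SE 0.953, interval -2.64 to 1.46) and -0.49 for C1S (SE 0.713, interval -2.02 to 1.05). With the block, where 1.03% of all genes were called, they were -0.73 (SE 0.200, adjusted p = 0.0845) and -0.63 (SE 0.199, adjusted p = 0.116) by edgeR. Without 24-h experiment 2, they were -0.87 (SE 0.108, adjusted p = 0.000118) and -0.86 (SE 0.167, adjusted p = 0.00247) by edgeR and were called, against 9.84% of all genes. CFI was called too, on the counts of 1 to 10 given above. It passed the filter in that fit only through the PM_24h_1dose libraries, the group where it was high. The call is therefore not evidence of a difference.

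Against 30 µg/cm2 at 24 h, none of the 7 genes was called, against 1.82% of all genes. None of the 7 had an unadjusted p under 0.05 in edgeR, and DESeq2 called none (4.58% of its genes). With the block, 14.6% of all genes and, of the 7, C1R were called, at a difference of 1.1 (SE 0.203, interval 0.66 to 1.54, adjusted p = 0.00324 by edgeR), C1R being less low after repeated exposure. C3 had 0.54 (SE 0.173, adjusted p = 0.0431), under the fold threshold. Without 24-h experiment 2, C1R (1.32, SE 0.114) and C3 (0.76, SE 0.0977) were called, against 21.6% of all genes. Leaving out only the library of experiment 2 with 30 µg/cm2 called C3 alone of the 7, at 0.98 (adjusted p = 0.0415 by edgeR). That fit keeps the control of 24-h experiment 2 and is unbalanced.

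**Figure D4:**
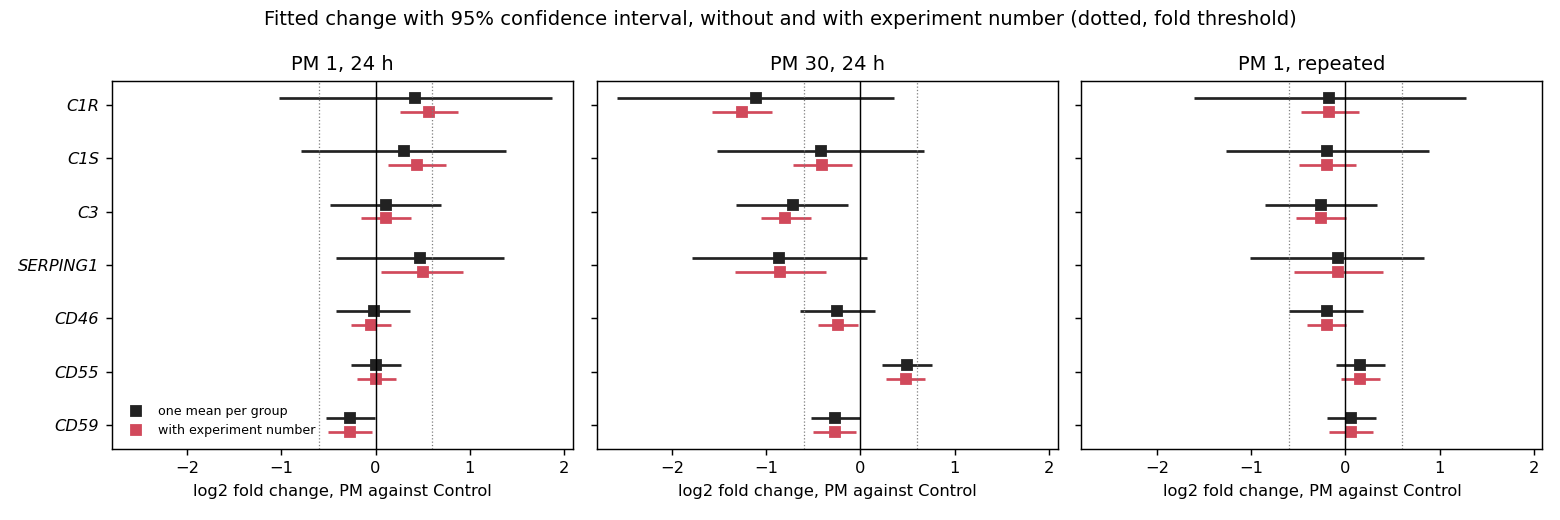
Log2 fold change of PM2.5 against its control with its 95% confidence interval for 7 genes, from the edgeR model with 1 mean per condition (black) and with the experiment number as a block (red), with dotted lines at the fold threshold of 0.6. The interval of C1R at 30 µg/cm2 runs from -2.58 to 0.36 without the block and from -1.58 to -0.94 with it.

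The controls of the 2 protocols also differed, and CD59 was the only one of the 7 genes called, by edgeR and by DESeq2, against 21.9% of all genes in edgeR and 21.1% in DESeq2. CD59 fell by 1.22 on the log2 scale in Control_7d against Control_24h (SE 0.123, adjusted p = 2.08e-05), from 341 ± 45.3 to 147 ± 6.03 CPM (SD, n = 3). CD55 was higher by 0.55 (SE 0.123, adjusted p = 0.00457 by edgeR), from 39.3 ± 0.912 to 57.6 ± 1.68 CPM, below the fold threshold. The groups of both genes did not overlap, as for 52.3% of all genes. Without 24-h experiment 2, C1R (1.34, SE 0.0796) and C1S (1.11, SE 0.122) were called higher as well, against 31.0% of all genes, since their levels in experiments 1 and 3 of Control_24h were far below those of Control_7d. The protocols differ in plating density, days in culture, washing and experiments, which cannot be told apart.

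Across the 5 conditions, mean C1R ran from 115 ± 79.5 CPM (PM_24h_1dose) through 109 ± 3.94 (Control_7d), 97.1 ± 2.30 (PM_7d_1dose) and 85.7 ± 74.8 (Control_24h) to 39.6 ± 42.0 CPM (PM_24h_30dose). Only Control_7d and PM_7d_1dose did not overlap among neighbours in that order. C1S and C3 also had PM_24h_1dose first and PM_24h_30dose last, and SERPING1 had the same ends. CD55 had PM_7d_1dose first, at 64.4 ± 4.53 CPM, and CD46 had Control_7d first, at 298 ± 2.67 CPM.

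The genes split by how they varied over the 15 libraries, which share experiments, as a description without a test. Pearson's r of log2 CPM was 0.957 for C1R with C1S, 0.885 for C1R with C3 and 0.821 for C3 with SERPING1, and it was 0.957, 0.836 and 0.733 over the 12 libraries without 24-h experiment 2. CD46 had r of -0.147 with C3 over 15 libraries and 0.915 over 12, the widest such shift among the pairs with C3. CD55 and CD59 had r of -0.78 and -0.744 over 15 and 12 libraries. The tested genes closest to C1R were ENSG00000267194.1 (r = 0.978), MXD3 (0.978) and C1RL (0.975), the last of which shares exon bases with it. CASP9 (0.969) was closest to C1S, LRRC45 (0.977) to C3, LIMS2 (0.960) to SERPING1, CDCA7L (0.980) to CD46, AKNA (0.972) to CD55 and PPME1 (0.991) to CD59.

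The rest of the complement system was read from 48 further genes, of which 16 passed the filter on low counts. C1QA, C1QB and C1QC, the chains of C1q, were listed at 0 in all libraries, as were MBL2, C4BPA and CR1, and C2 had at most 2 counts. At 30 µg/cm2 the median log2 fold change was -0.01 over the 16 and -0.42 over the 7, against 0.03 over all genes tested. With the block, genes called higher included C5, ITGAM and ITGAX, and genes called lower included C4B and FCN2. C5, the entry to the terminal pathway, was 0.97 higher (SE 0.229, adjusted p = 0.00686 by edgeR). C4B and FCN2 had at most 40 and 27 counts in any library, and C4B is a near-identical copy of C4A, so its value is uncertain.

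None of the 16 was called at 1 µg/cm2, at 24 h or repeated, in edgeR with 1 mean per condition, nor in either difference between responses. Between 30 and 1 µg/cm2 the block called C5 and ITGAX higher, and C1RL, C4B, FCN2 and CFD among those lower. For repeated exposure the block called FCN2 lower, on at most 27 counts, and in the difference between repeated and 30 µg/cm2 it called C5 (-1.47, SE 0.310). Between the controls, 6 of the 16 were called, against 21.9% of all genes. C5 (1.75, SE 0.291), C5AR1, the C5a receptor (1.04, SE 0.262), SUSD4 and FCN2 were higher in Control_7d, and ITGB2 (-1.48, SE 0.162) and ITGAM were lower. SUSD4 had at most 19 counts in a library, and ITGAM at most 1 in Control_7d. Of 7 transcription factors known to act on complement genes, all of which passed the filter, none was called in any PM2.5 comparison without the block. With it CEBPD was lower at 30 µg/cm2, at -0.90 on the log2 scale (SE 0.209, adjusted p = 0.00641) against vehicle, where the block called 15.2% of all genes.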

How the data were processed

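RNA from 15 BEAS-2B libraries, with 3 independent experiments in each of 5 conditions, was analysed. Poly-A libraries were read as single ends of 50 bases, which the authors aligned with STAR and counted with featureCounts; they deposited 1 table of raw counts per gene with exon lengths. The methods name GRCh38 and the labels hg19; gene positions in the table match GRCh38. The annotation, strand setting and handling of overlapping genes are not given in the sources used here. The methods and the labels differ in the number of daily exposures.

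Symbols were given to 57437 of 58219 identifiers. In R 4.3.3, edgeR 4.0.16 was used with filterByExpr (17599 genes kept), TMM and the quasi-likelihood test in its earlier mode, with 1 mean per condition; an SE is the absolute log2 change over the square root of F. Correlations used log2 CPM with a prior count of 2. DESeq2 1.42.0, other scaling, filters and libraries were alternatives. The fits were tested on simulated data.

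The series record gives the replicate number as the experiment, which pairs libraries within a protocol. Deviations from group means correlated at 0.201 to 0.721 (9 pairs) between same-numbered 24-h libraries and at 0.121 to 0.181 (3 pairs) in the repeated protocol. Different numbers had means of -0.231 and -0.0773. Since each group of 3 was centred on its mean, these negative values follow from the positive ones and are no separate evidence of pairing. Without the block, the p-values measure the spread between libraries of a condition, which come from separate experiments. With the block, they measure the spread left after the shared shift of each experiment is taken out.

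The genes and lists were chosen with earlier results of these data known. Genes outside the 9 were named if they belong to the complement lists and were called, or were the tested genes closest to one of the 7 by Pearson's r; marker genes, and complement genes at or near 0 counts, were named after their values were seen. A few genes that these rules cover are not reported here.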

Additional observations from a re-analysis of the deposited data

Results flagged for a closer look

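In the repeated protocol every experiment moved opposite to every experiment at 1 µg/cm2 for 24 h for C1R, C1S and C3: all 3 were higher than control in 3 of 3 experiments at 24 h and lower in 3 of 3 after repeated exposure. Some steps were close to none, with C1S at 1.01 times control in 24-h experiment 2 and 0.976 in repeated experiment 3. The share of all genes with this pattern was not computed. In the repeated protocol alone, 43.0% of all genes had all pairs of libraries 1 way. The 3 genes share experiments and correlate with each other (r of 0.81 to 0.957). The difference between the log2 fold changes, repeated minus 24 h, was -0.59 for C1R, -0.49 for C1S and -0.37 for C3. The test of that difference with 1 mean per condition in edgeR called none of them, with adjusted p of 0.946, 0.939 and 0.907. Against 30 µg/cm2 at 24 h, the difference for C1R was 1.1 and passed edgeR's test with the replicate block, where 14.6% of all genes were called. Groups of 3 libraries are too small for a test of single outlying libraries.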

How the results depend on the processing

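Of 819 fitted values of the 7 genes under the alternatives, 761 kept their side of the call and 58 became called. None of the calls was lost or reversed, and 27 changed sign without being called under either setting. The number of the 9 genes called did not move with RLE scaling, the 1 CPM filter, the compared groups alone or edgeR's current mode.

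Of the 9 genes and all 57 complement genes, 7 and 23 were tested with 1 mean per condition. At 30 µg/cm2 against control, 0 and 1 of them were called, beside 8.07% of all genes. The counts were 1 and 3 with no filter, and 3 and 9 with the replicate block (15.2% of all genes). They were 3 and 8 without 24-h experiment 2 (19.1% of all genes), and 3 and 8 with the block and without experiment 2. The block in 24-h libraries alone gave 3 and 6. For all complement genes DESeq2 gave 2 and the compared groups alone 0. For 30 against 1 µg/cm2 (0 and 1) the counts were 3 and 8, 4 and 11, 4 and 9, 4 and 9, and 4 and 8 in the same order. DESeq2 gave 2 and 7. Of all genes, 7.84% were called with 1 mean per condition, 15.6% with the block and 17.3% without experiment 2. For all complement genes the 1 CPM filter gave 2, edgeR's current mode 2 and the compared groups alone 0. In the comparisons that follow, the shares of all genes given above also rose under the block or without experiment 2. For 1 µg/cm2 at 24 h (0 and 0) the counts were 2 and 2 without experiment 2 and 3 and 4 with the block besides, the third being CFI, with 1 count in each control library. CFI passed the filter in the fits without experiment 2 only through PM_24h_1dose, where it was high, so its calls are not evidence of a change. For repeated exposure (0 and 0) the complement count was 1 with the block, 1 in the compared groups alone and 2 with the block in repeated libraries alone. Between the controls (1 and 7) they were 3 and 11 without experiment 2. No paired analysis was possible between the controls because the protocols have separate experiments. The difference between repeated and 1 µg/cm2 (0 and 0) gave 3 and 4 without experiment 2, with or without the block, CFI being among the 3 in the fit without the block. That between repeated and 30 µg/cm2 (0 and 0) gave 1 and 2 with the block, 2 and 6 without experiment 2 with or without the block, and for all complement genes 1 with no filter and 1 by DESeq2.

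Leaving out each library in turn gave 0 to 3 of the 9 genes (1 to 6 complement genes) for 30 µg/cm2 against control, 0 to 5 (0 to 9) for 30 against 1 µg/cm2, 1 to 1 (4 to 7) between the controls, and 0 to 1 (0 to 1) for repeated minus 30 µg/cm2. It gave 0 to 0 (0 to 0) for the rest. Every such change in the 9 genes came from the library of 24-h experiment 2 with 30 µg/cm2. Leaving it out unbalances the fit, since the other 24-h libraries of experiment 2 stay in. The cause of these changes was not tested. The fits with the block in part of the libraries were added after seeing the data.

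SERPING1 and CFI are limited by depth, at 19 to 89 and 0 to 10 reads per library.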
